A study of Mus musculus with 8 samples.

Results

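Potassium channels carry the outward current that ends the action potential, sets the resting potential and paces firing. Besides the G protein-gated (GIRK) and ATP-sensitive (KATP) inward rectifiers, which were left out, the mouse genome encodes them in a large family whose gene symbols start with Kcn. All probesets of the arrays with a single gene symbol starting with Kcn were taken, except those of Kcnj3, Kcnj5, Kcnj6, Kcnj8, Kcnj9 and Kcnj11. This left 89 of 95 Kcn probesets, for 86 of the 19938 genes that the arrays name by a single symbol. Kcna2, Kcnh8 and Kcnma1 have 2 probesets each. Kcnd3os, Kcnmb4os1 and Kcnmb4os2 are transcripts from the opposite strand of a channel gene rather than channel subunits. Of the 89 probesets, 70 (68 genes) reached 60 on the linear scale (5.91 on the log2 scale) as the mean of at least 1 group and were compared. The other 19 stayed under it and are given by name below. At the edge of this filter, Kcna2 (its second probeset) passed with a highest group mean of 60.3, and Kcng4 did not with 59.7. In 55 probesets all 4 groups reached 60, and in 15 only 1 to 3 groups did, so that these 15 entered partly through the group in which they were high.

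The arrays profiled midbrain dopaminergic (mDA) neurons of newborn C57Bl/6 pups (C57Bl/6J in the methods, P1 to P4) that were heterozygous for a TH-EGFP transgene, in which EGFP marks cells that express tyrosine hydroxylase. Wild-type pups were Pitx3+/+;Th-EGFP+/- and mutant pups were Pitx3-/-;Th-EGFP+/-, so every group carried the transgene. The lateral substantia nigra pars compacta (SNc) and the medial ventral tegmental area (VTA) were dissected, dissociated with papain and sorted for live EGFP+ cells, which gave the groups SNc WT, VTA WT, SNc KO and VTA KO with 2 Affymetrix Mouse Gene 1.0 ST arrays each. By the study's account, the SNc of Pitx3-/- pups had lost its Pitx3-positive neurons by birth and kept the dorsal Pitx3-negative ones, whereas the Pitx3-expressing neurons of VTA were still there. SNc KO therefore differs from SNc WT both in genotype and in which neurons it holds. Batches of sorted cells were stored and pooled. By the methods, RNA was purified in duplicate for the cell preparation of each group. Whether the duplicates were of separate animals is not stated in any source used here. P-values therefore measure only how these samples spread, and that spread may be technical. In such bulk samples fewer cells of a type and less RNA per cell cannot be told apart.

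In mDA neurons several of these channels have known places. Kv4 channels with their cytoplasmic KChIP and membrane-bound DPP partners carry the A-type current that slows pacemaking, small-conductance calcium-activated (SK) channels keep it regular, and Kv2 and BK channels shape the spike. Two-pore channels such as TASK carry leak current, KCNQ channels carry the slowly activating M-current, and ERG channels limit burst and plateau firing. The inward rectifiers Kcnj10 and Kcnj16 are known from glia, where they clear potassium from the extracellular space.

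Array medians lay between 6.11 and 6.24 on the log2 scale. The 8 dopaminergic markers, among them Th, Slc6a3 and Nr4a2, were all over a linear signal of 60 in every group. Pitx3 itself had log2 signals of 7.72 and 7.63 in SNc WT, 7.87 and 7.94 in SNc KO, 8.10 and 7.84 in VTA WT and 8.08 and 7.92 in VTA KO. It was not lower in the arrays labelled KO. Where its probeset lies against the deleted part is not stated, so it checks neither genotype nor labels. Over the 89 Kcn probesets the median log2 gap between the 2 arrays of a group was 0.175 and 0.125 for SNc WT and SNc KO, and 0.0955 and 0.163 for VTA WT and VTA KO, and the widest was 0.839, for Kcnj16 in VTA KO.

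Few channel genes separated the groups, and those that did came from different classes. After adjustment over all 22112 probesets compared, 1 of 70 Kcn probesets differed between the WT regions, Kcnj10, which was lower in SNc, and 1 between the SNc genotypes, Kcnk9, which was higher in KO, by limma at an adjusted p under 0.05. In the first of these comparisons 0.439% of all probesets were called and in the second 0.149%. Kcnj10 passed the signal filter only through its VTA groups, and it was not called with no signal filter. No Kcn probeset was called in VTA KO against VTA WT, where 0.00904% of all probesets were, or in SNc KO against VTA KO, where 0.149% were. At an unadjusted p under 0.05, limma gave 16 Kcn probesets in SNc WT against VTA WT (22.9%, against 18.8% of all probesets), with 5 higher and 11 lower in SNc WT. It gave 12 in SNc KO against SNc WT (17.1%, against 8.62%), with 9 higher and 3 lower in SNc KO. In VTA KO against VTA WT there were 7 (10%, against 10.2%), with 4 higher and 3 lower, and in SNc KO against VTA KO also 7 (10%, against 17.5%). The median log2 difference over all 89 Kcn probesets was -0.111 between the WT regions, 0.068 between the SNc genotypes and 0.015 between the VTA genotypes, beside -0.034, 0.004 and -0.01 over all probesets.

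The study's thresholds on fold, p and signal were applied here as a fold of at least 1.5 (0.58 on the log2 scale), limma's p without adjustment at most 0.05 and a linear mean of at least 60 in a compared group. At these thresholds SNc WT was higher than VTA WT in Kcnrg and Kcnd3, and lower in Kcnj10, Kcnj16, Kcng3, Kcnk9 and Kcnab1. Of all probesets, 2.66% were higher and 3.96% lower. Kcnk9, Kcnh7 and Kcna4 were higher in SNc KO than in SNc WT and none was lower, where 1.84% of all probesets were higher and 1.76% lower. Kcnk9 was higher and Kcnj10 and Kcnj16 were lower in VTA KO than in VTA WT, where 1.92% of all probesets were higher and 2.42% lower. None passed in SNc KO against VTA KO, where 3.47% of all probesets were higher and 3.5% lower. The 9 genes that passed in at least 1 comparison span two-pore channels, Kv1 and Kv4 alpha subunits, ERG channels, a silent subunit, a Kv beta subunit, inward rectifiers and a regulator.

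**Figure D1:**
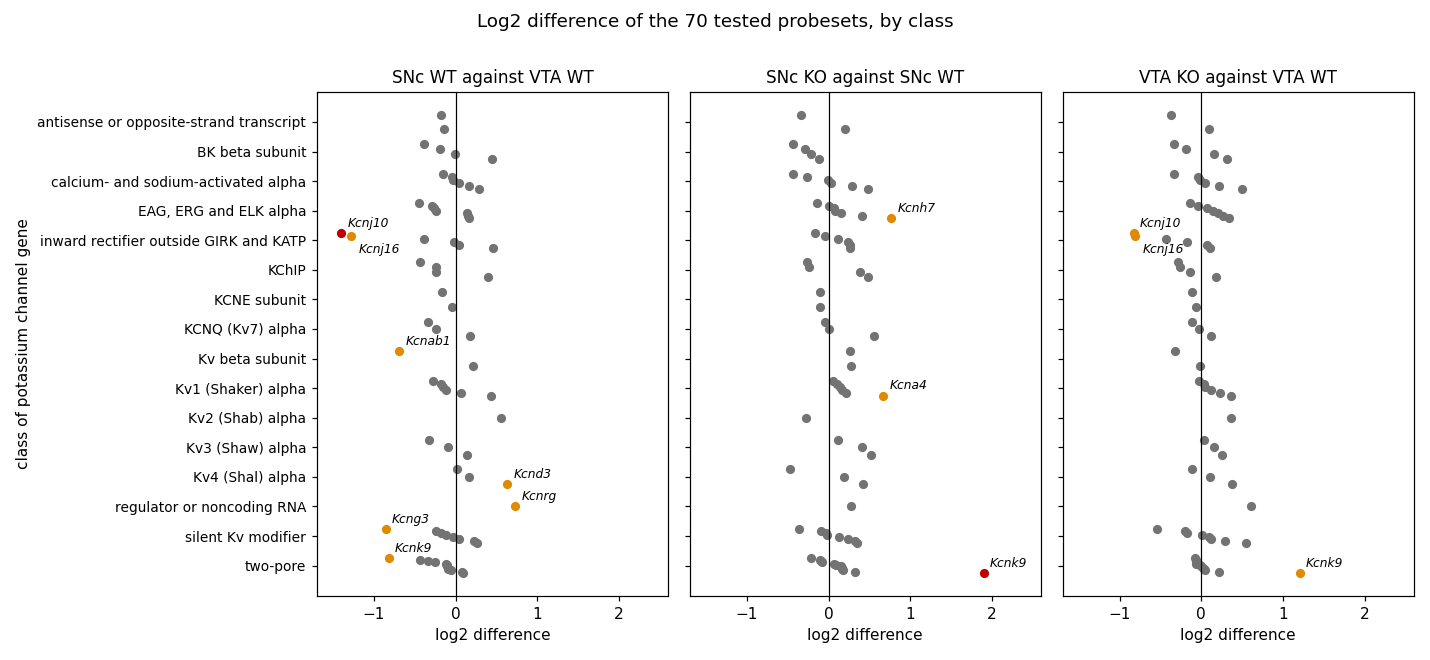
Log2 difference (x axis) of each of the 70 compared probesets by class (y axis), from left to right between the WT regions, between the SNc genotypes and between the VTA genotypes. Red points were called at an adjusted p under 0.05 and orange points passed only the study's thresholds. Most points of every class lie close to 0, and Kcnk9 stands alone on the right in both knockout comparisons, at 1.90 in SNc and 1.21 in VTA.

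**Figure D2:**
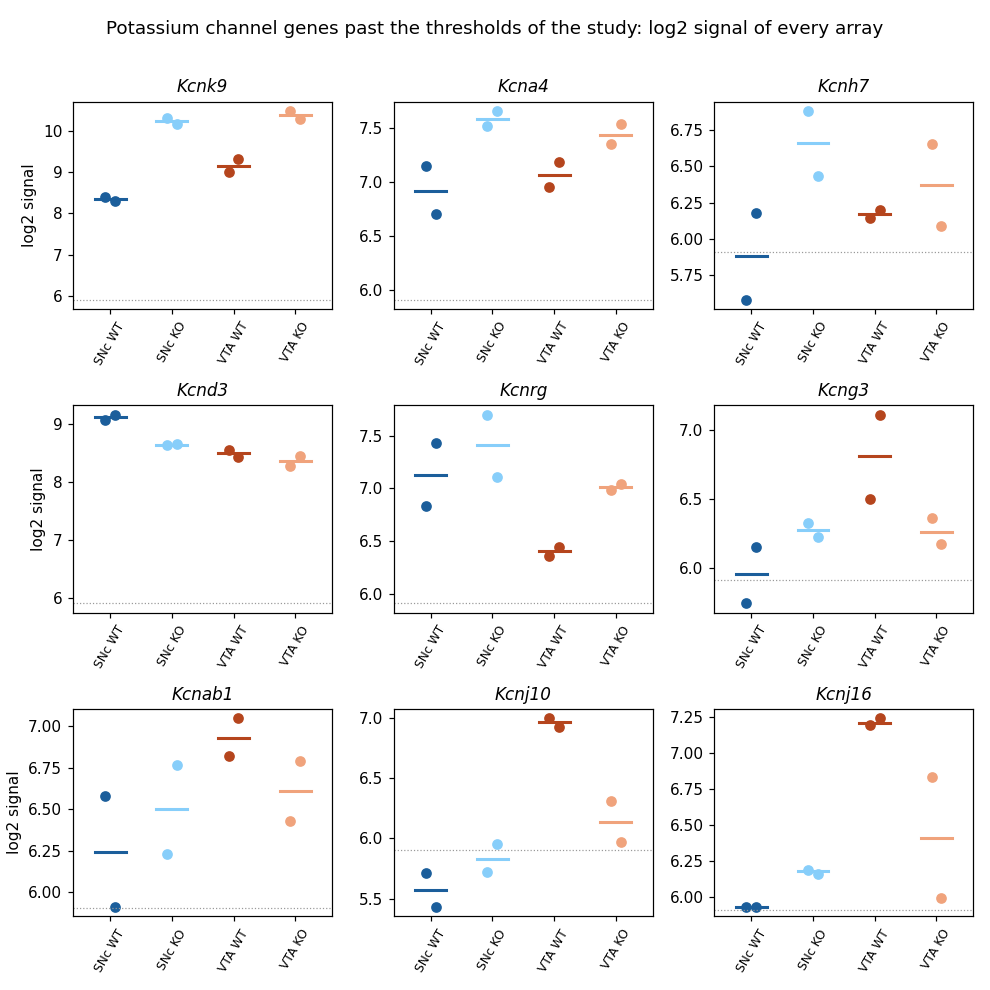
Log2 signal (y axis, with its own scale in each panel) of every array for the 9 genes past the study's thresholds in at least 1 comparison. Points are arrays, bars are the means of 2 arrays and the dotted line is a linear signal of 60. The Kcnk9 arrays of each KO group lie above all 4 WT arrays, while the Kcnj10 and Kcnj16 arrays of VTA WT lie above those of every other group.

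Pitx3 belongs to the bicoid-type homeodomain proteins, which are known to bind TAATCC. Promoter windows of RefSeq (GRCm38.p6), from 250 bases before to 50 after a gene start, were searched for TAATCC on both strands (GGATTA on the other). Windows were found for 65 of the 86 genes, 89 windows in all, with none for Kcnk9. TAATCC was in 2 of these 89 windows (2.25%), those of Kcng4 and Kcnrg, and in 2320 of the 32851 windows of all genes (7.06%). The windows of Kcnrg, which holds the motif, and of Kcnd3 and Kcnj10, which do not, are shown because these genes had single windows and were past the study's thresholds between the wild-type regions. They differ in base composition, with 41.7% G and C and 1 CpG in Kcnrg, 64.0% and 25 in Kcnd3, and 63.7% and 21 in Kcnj10, where the median window of all genes had 52.7% and 7. Kcng3 also met both conditions, and its window, with 82.0% G and C, 49 CpG and no motif, is not printed. Each window shown is on the plus strand and printed 5′ to 3′ in lower case, with the motif in capitals. The Kcnrg window is at chr14:61607207-61607506, the Kcnd3 window at chr3:105451640-105451939 and the Kcnj10 window at chr1:172340960-172341259. A match is a description of letters and not of binding, and its absence says only that these letters are not in this window.
Kcnrg: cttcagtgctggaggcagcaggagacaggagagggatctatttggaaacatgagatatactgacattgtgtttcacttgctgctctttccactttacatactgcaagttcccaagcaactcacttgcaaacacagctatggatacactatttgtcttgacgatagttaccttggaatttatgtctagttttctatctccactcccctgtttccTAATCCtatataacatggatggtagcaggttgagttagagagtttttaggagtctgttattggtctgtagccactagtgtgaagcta
Kcnd3: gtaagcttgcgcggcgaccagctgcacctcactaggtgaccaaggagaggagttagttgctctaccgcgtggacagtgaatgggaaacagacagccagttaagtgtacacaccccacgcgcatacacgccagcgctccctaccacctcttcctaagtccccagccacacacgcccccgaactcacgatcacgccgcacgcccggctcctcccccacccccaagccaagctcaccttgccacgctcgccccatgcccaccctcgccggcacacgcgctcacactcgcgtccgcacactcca
Kcnj10: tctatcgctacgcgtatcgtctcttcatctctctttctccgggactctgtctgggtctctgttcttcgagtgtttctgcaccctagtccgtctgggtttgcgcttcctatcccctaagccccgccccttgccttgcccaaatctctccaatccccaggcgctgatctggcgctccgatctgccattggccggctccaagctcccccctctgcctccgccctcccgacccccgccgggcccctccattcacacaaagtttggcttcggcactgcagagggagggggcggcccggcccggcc

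Kcnk9 showed the widest knockout difference of all Kcn genes compared, in both regions. It encodes TASK-3, a two-pore channel that is closed by extracellular acid and by Gq-coupled receptors and carries leak current. Its log2 signals were 8.39 and 8.29 in SNc WT, 10.31 and 10.16 in SNc KO, 9.01 and 9.31 in VTA WT, and 10.48 and 10.28 in VTA KO. The order was thus SNc WT, VTA WT and then both KO groups, which overlapped each other. Kcnk9 rose 3.72-fold from SNc WT to SNc KO (95% confidence interval 2.91 to 4.76), a log2 difference of 1.90 with a standard error of 0.15 and an adjusted p of 0.0221 by limma. In VTA KO it was 2.32-fold higher than in VTA WT (1.81 to 2.97) with a log2 difference of 1.21, but its adjusted p was 0.103 by limma (unadjusted p = 0.000125). SNc WT lay 0.82 below VTA WT on the log2 scale (adjusted p = 0.083 by limma), a comparison that shares the SNc WT arrays with the first. SNc KO and VTA KO differed by -0.14, with a 95% interval of -0.50 to 0.22.

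Whether the knockout difference of Kcnk9 was wider in SNc than in VTA was tested as an interaction. The estimate was 0.68 on the log2 scale (95% interval 0.18 to 1.19), with an unadjusted p of 0.0157 and an adjusted p of 0.429 by limma, so that it did not pass. The Kcnk9 difference in SNc kept its size, between 1.82 and 1.97, whichever of the 8 arrays was left out, but its adjusted p was over 0.05 without any single array of SNc WT, SNc KO or VTA WT and reached 0.235 without SNc WT replicate 1. With the arrays of the 2 groups only it was 0.0860. Markers of other transmitter types were also higher in KO by their summed signals. The summed linear signal of 3 GABAergic markers (Gad1, Gad2 and Slc32a1) ranged over 759 to 818 in SNc WT, 1160 to 1270 in SNc KO, 750 to 762 in VTA WT and 1060 to 1230 in VTA KO, and that of 2 glutamatergic markers (Slc17a6 and Slc17a7) over 486 to 588, 1050 to 1110, 876 to 1010 and 1040 to 1170. The sum of the 8 dopaminergic markers ranged over 7780 to 8400 in SNc WT and 5630 to 6270 in SNc KO, and over 6810 to 6870 in VTA WT and 5540 to 5710 in VTA KO. The dopaminergic markers did not fall together. At an unadjusted p under 0.05 by limma, 3 of the 8 were lower in SNc KO and 2 in VTA KO. Slc6a3 had means of 10.99 and 10.01 in SNc (WT and KO) and 10.42 and 9.52 in VTA. Th had 10.18 and 10.09 in SNc and 10.14 and 10.25 in VTA. Foxa2 had a higher mean in SNc KO, and En1 in VTA KO. Within the GABAergic and glutamatergic sums, the Gad1 arrays of WT and KO overlapped in both regions, and Slc17a7 stayed under a linear signal of 60 in every group. Whether these markers come from cells other than dopaminergic neurons, and what part they have in the Kcnk9 result, was not tested.

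No other two-pore channel showed a difference of this size. Of 12 two-pore probesets compared, Kcnk9 alone passed the test in any comparison, and in SNc KO against SNc WT the 14 two-pore probesets had a median log2 difference of 0.081 beside 0.004 over all probesets. Kcnk3, which encodes the related TASK-1 and can join Kcnk9 in one channel, had group means between 5.67 and 6.01 and reached a linear signal of 60 only in VTA KO. Its arrays read 5.77 and 5.58 in SNc WT and 5.89 and 5.77 in SNc KO, and its log2 difference was 0.15 in SNc (95% interval -0.17 to 0.48) and 0.22 in VTA (-0.10 to 0.54). Kcnk15, which encodes TASK-5 and was looked at after its values were seen, was the other member of this subfamily. It read 5.58 and 5.80 in SNc WT, 5.97 and 6.05 in SNc KO, 6.12 and 6.15 in VTA WT, and 6.15 and 6.17 in VTA KO. The SNc WT arrays were the lowest of the 4 groups, as for Kcnk9, but the log2 differences were small: 0.32 between the SNc genotypes (adjusted p = 0.504 by limma) and 0.03 between the VTA genotypes.

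None of the A-type current genes compared was called by limma at an adjusted p under 0.05. Kcnd3, the Kv4 alpha subunit known from SNc neurons, was highest in SNc WT, and its KChIP partner Kcnip3 followed the same order. Kcnd2, the other Kv4 alpha subunit at a high signal, did not. Kcnd3 read 9.08 and 9.17 in SNc WT, 8.64 and 8.66 in SNc KO, 8.55 and 8.44 in VTA WT, and 8.29 and 8.46 in VTA KO. The SNc WT arrays lay above those of all other groups, and the 2 VTA groups overlapped. SNc WT was 1.55-fold above VTA WT (95% interval 1.28 to 1.86), with a log2 difference of 0.63, a standard error of 0.11 and an adjusted p of 0.083 by limma. Kcnd3 in SNc KO was 0.47 below that of SNc WT on the log2 scale (95% interval -0.74 to -0.20, unadjusted p = 0.00482, adjusted p = 0.297 by limma). SNc KO was 0.28 above VTA KO (unadjusted p = 0.0439, adjusted p = 0.272 by limma), and VTA KO differed from VTA WT by -0.12 (-0.39 to 0.15). The interaction was -0.35 (adjusted p = 0.536 by limma). The opposite-strand transcript Kcnd3os had signals between 5.93 and 6.30 over the 8 arrays.

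Kcnip3, which encodes KChIP3, a calcium sensor that also acts as a transcriptional repressor, read 7.83 and 7.94 in SNc WT, 7.75 and 7.55 in SNc KO, 7.49 and 7.49 in VTA WT, and 7.36 and 7.34 in VTA KO. No 2 groups overlapped. SNc WT was 0.39 above VTA WT on the log2 scale (unadjusted p = 0.0118, adjusted p = 0.160 by limma), and SNc KO was 0.30 above VTA KO (unadjusted p = 0.0379, adjusted p = 0.261 by limma). Kcnd2 read 8.90 and 8.86 in SNc WT, 9.49 and 9.11 in SNc KO, 8.62 and 8.83 in VTA WT, and 9.35 and 8.87 in VTA KO. Its arrays were higher in the KO group of each region, without overlap, by 0.42 in SNc (95% interval -0.08 to 0.91) and 0.38 in VTA (-0.11 to 0.88), and neither passed the test. Kcnd1 stayed between 5.93 and 6.37 on all arrays.

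Among the other KChIPs, Kcnip4 had group means of 9.60 and 9.34 in SNc (WT and KO) and 9.85 and 9.55 in VTA, and its arrays in VTA KO, at 9.23 and 9.87, were far apart. Kcnip1 had 8.39 and 8.77 in SNc and 8.63 and 8.37 in VTA, and neither gene passed the test in any comparison. Kcnip2, named here after its values were seen, was near the filter and reached a linear signal of 60 in VTA KO only. Its arrays read 5.32 and 5.38 in SNc WT, below the lowest of 5.63 in the other groups. Of the DPP partners, Dpp6 had group means of 9.17 and 9.25 in SNc (WT and KO) and 9.08 and 9.31 in VTA by 1 of its 2 probesets, and Dpp10 had 9.30 and 9.12 in SNc and 9.09 and 9.04 in VTA. The log2 difference of Dpp10 in SNc WT against VTA WT was 0.21, in the direction of Kcnd3, with an adjusted p of 0.371 by limma.

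**Figure D3:**
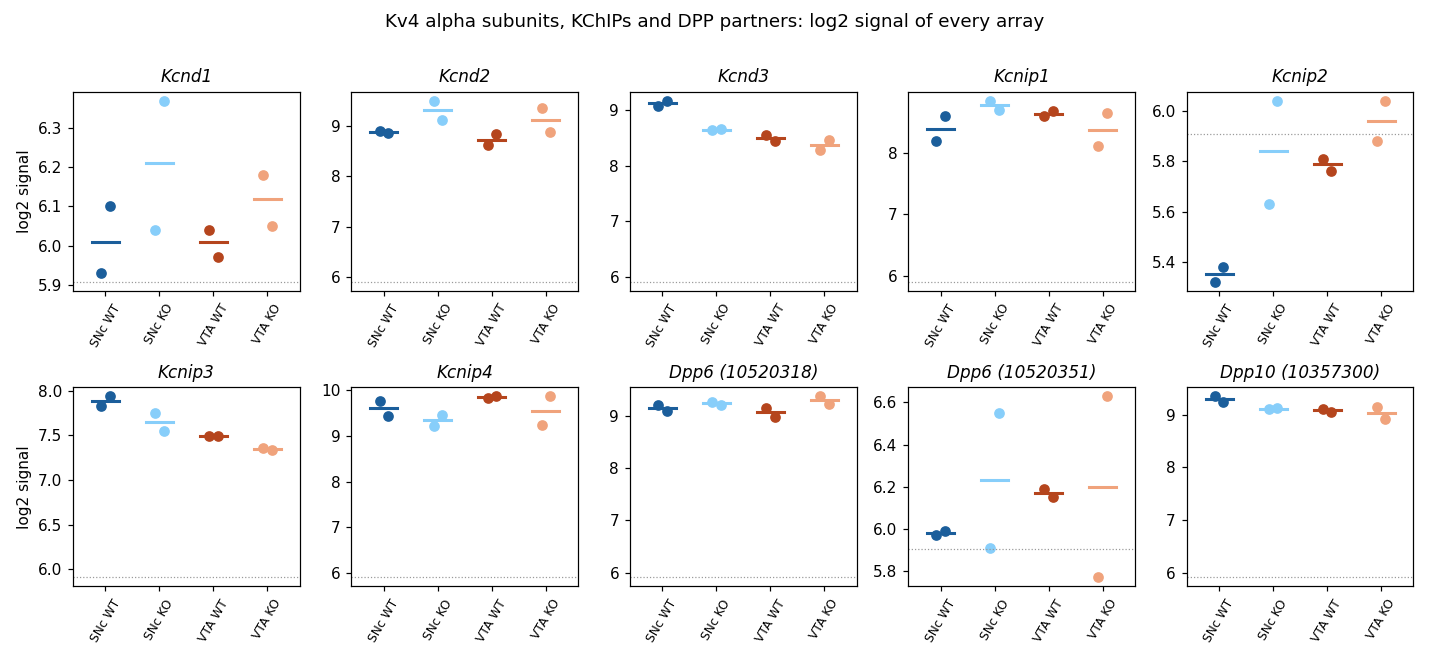
Log2 signal (y axis, with its own scale in each panel) of every array for the Kv4 alpha subunits, the KChIPs and the DPP partners. Points are arrays, bars are means of 2 arrays, and the dotted line is a linear signal of 60. Both SNc groups lie above both VTA groups in the panels of Kcnd3 and Kcnip3, and the KO arrays lie above the WT arrays of the same region in that of Kcnd2.

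Most Kv1 and Kv3 alpha probesets had a higher mean in KO than in WT in both regions, though the arrays of several overlapped. In SNc KO against SNc WT, 8 of 9 Kv1 probesets and all 3 Kv3 probesets had a log2 difference above 0, with medians of 0.106 and 0.407 beside 0.004 over all probesets, and none passed the adjusted test. In VTA KO against VTA WT the counts above 0 were also 8 of 9 and 3 of 3, with medians of 0.057 and 0.156 beside -0.01. Only 6 of the 9 Kv1 probesets reached the signal filter, and 2 of these are of Kcna2. The arrays of WT and KO overlapped for Kcna5 in both regions, and for Kcna3, Kcnc2 and Kcnc4 in VTA. Kcna4, whose Kv1 subunit forms a rapidly inactivating channel, read 7.15 and 6.70 in SNc WT, 7.52 and 7.66 in SNc KO, 6.95 and 7.19 in VTA WT, and 7.35 and 7.54 in VTA KO. The KO arrays of each region lay above its WT arrays. The fold was 1.59 in SNc (95% interval 1.17 to 2.16, unadjusted p = 0.00958, adjusted p = 0.374 by limma) and 1.29 in VTA (0.952 to 1.76). The log2 difference of 0.67 in SNc was 0.89 without SNc WT replicate 1 and 0.44 without SNc WT replicate 2. Kcnc4, the fast-inactivating Kv3 subunit, read 6.42 and 6.68 in SNc WT, 7.08 and 7.05 in SNc KO, 6.87 and 6.89 in VTA WT, and 7.00 and 6.83 in VTA KO. SNc WT was the lowest group, without overlap. The log2 difference between KO and WT was 0.52 in SNc (unadjusted p = 0.00596, adjusted p = 0.314 by limma) and 0.03 in VTA, and the interaction was 0.49 (unadjusted p = 0.0341, adjusted p = 0.476 by limma). Kcna3, a Kv1 subunit known from neurons and T cells, had group means between 7.17 and 7.40 and differed by at most 0.21 in any comparison.

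Kcna6, named after its values were seen, had the opposite regional direction from Kcnk9. It read 7.49 and 7.30 in SNc WT, 7.52 and 7.54 in SNc KO, 6.95 and 6.97 in VTA WT, and 7.11 and 7.27 in VTA KO. All 4 SNc arrays lay above all 4 VTA arrays. The log2 difference between the regions was 0.43 in WT (unadjusted p = 0.00892, adjusted p = 0.148 by limma) and 0.34 in KO (unadjusted p = 0.0249, adjusted p = 0.232 by limma). Kcnb2, a delayed-rectifier Kv2 subunit, read 8.08 and 7.83 in SNc WT, 7.69 and 7.67 in SNc KO, 7.35 and 7.43 in VTA WT, and 8.13 and 7.37 in VTA KO. SNc WT lay above VTA WT, by 0.56 on the log2 scale (95% interval -0.03 to 1.15, adjusted p = 0.281 by limma), and the 2 VTA KO arrays lay on either side of SNc KO.

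Subunits that do not conduct alone but change Kv channels showed 2 of the regional differences. Kcng3, a silent subunit that joins Kv2 channels, read 5.74 and 6.15 in SNc WT, 6.32 and 6.22 in SNc KO, 6.50 and 7.11 in VTA WT, and 6.36 and 6.17 in VTA KO. VTA WT was the highest group, without overlap. SNc WT was 1.82-fold lower than VTA WT (95% interval 1.23 to 2.68, unadjusted p = 0.0093, adjusted p = 0.151 by limma). The log2 difference of -0.86 rested on 2 VTA WT arrays that were far apart, and it was -1.17 without VTA WT replicate 1 and -0.55 without VTA WT replicate 2. VTA KO was 0.54 below VTA WT (95% interval -1.11 to 0.02), and the interaction was 0.86 (unadjusted p = 0.038, adjusted p = 0.482 by limma). Kcnab1, the Kv beta subunit that speeds the inactivation of Kv1 channels, read 6.58 and 5.91 in SNc WT, 6.23 and 6.77 in SNc KO, 6.82 and 7.05 in VTA WT, and 6.43 and 6.79 in VTA KO. VTA WT was again the highest group, without overlap, and SNc WT differed from it by -0.69 on the log2 scale (unadjusted p = 0.0485, adjusted p = 0.263 by limma), which was -1.03 without SNc WT replicate 1 and -0.36 without SNc WT replicate 2.

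The silent subunits as a class showed no common knockout direction. Of their 10 probesets, 5 were above 0 and 5 below in each region. Their medians were 0.001 in SNc and -0.012 in VTA. In 2 of them, Kcnv1 and Kcnf1, the KO arrays were higher in both regions. Kcnv1, which suppresses Kv2 and Kv3 currents, read 6.84 and 6.70 in SNc WT, 6.98 and 7.05 in SNc KO, 6.70 and 6.78 in VTA WT, and 7.08 and 6.98 in VTA KO, so that the 4 KO arrays lay above the 4 WT arrays. The log2 differences were 0.24 in SNc (95% interval -0.02 to 0.50) and 0.29 in VTA (0.03 to 0.56, unadjusted p = 0.0336, adjusted p = 0.436 by limma). Kcnf1, named after its values were seen, read 6.14 and 6.28 in SNc WT, 6.71 and 6.42 in SNc KO, 5.81 and 6.10 in VTA WT, and 6.54 and 6.48 in VTA KO. Again every KO array was above every WT array, with differences of 0.35 in SNc (adjusted p = 0.603 by limma) and 0.55 in VTA (unadjusted p = 0.0102, adjusted p = 0.310 by limma).

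The proteins that cluster Kv1 channels or bind Kv2 channels were compared for reference, from a list of 21 partner genes of which 20 were found on the arrays, with 18 probesets compared. None was called by limma in any of the 5 comparisons. Lgi1, a secreted protein bound to Kv1 channel complexes, read 10.20 and 10.25 in SNc WT, 9.16 and 9.84 in SNc KO, 9.78 and 10.02 in VTA WT, and 9.01 and 9.52 in VTA KO. The KO arrays lay below the WT arrays of the same region, with log2 differences of -0.73 in SNc and -0.64 in VTA (adjusted p = 0.514 and 0.492 by limma). Cntnap2, which places Kv1 channels beside the node of Ranvier, had the other direction, at 0.31 in SNc and 0.47 in VTA (adjusted p = 0.576 and 0.291 by limma).

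Of the channels behind the M-current and the EAG, ERG and ELK currents, 1 gene passed the study's thresholds. Kcnh7, an ERG channel of the nervous system, read 5.58 and 6.18 in SNc WT, 6.88 and 6.43 in SNc KO, 6.14 and 6.20 in VTA WT, and 6.65 and 6.09 in VTA KO. Both SNc KO arrays were above both SNc WT arrays, while the VTA groups overlapped. The fold in SNc was 1.71 (95% interval 1.07 to 2.73, unadjusted p = 0.0302, adjusted p = 0.507 by limma), and the log2 difference of 0.77 was 1.07 without SNc WT replicate 2 and 0.47 without SNc WT replicate 1. Kcnh2, the ERG channel of heart and brain, read 6.96 and 6.89 in SNc WT, 7.04 and 6.96 in SNc KO, 6.77 and 6.79 in VTA WT, and 6.75 and 6.72 in VTA KO. All SNc arrays were above all VTA arrays, by 0.15 in WT (95% interval -0.09 to 0.38) and 0.26 in KO (unadjusted p = 0.0342, adjusted p = 0.253 by limma).

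Kcnq3, an M-current subunit, was alike in the WT and KO groups of each region to within 0.04 on the log2 scale. It read 8.18 and 8.20 in SNc WT, 8.23 and 8.07 in SNc KO, 7.98 and 8.04 in VTA WT, and 7.90 and 8.05 in VTA KO. The 95% intervals of its knockout differences were -0.31 to 0.24 in SNc and -0.31 to 0.24 in VTA. Kcnq5, a further M-current subunit named after its values were seen, read 6.39 and 6.14 in SNc WT, 6.90 and 6.74 in SNc KO, 6.63 and 6.58 in VTA WT, and 6.52 and 6.92 in VTA KO. SNc WT was the lowest group, 0.56 under SNc KO on the log2 scale (unadjusted p = 0.0149, adjusted p = 0.423 by limma), and the VTA difference was 0.12. Kcne1l, a KCNE accessory subunit now named Kcne5, had group means of 6.33 and 6.23 in SNc (WT and KO) and 6.38 and 6.25 in VTA, all within the spread of its arrays.

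Among the calcium-activated channels, Kcnn3 and the BK beta subunits read lower in KO than in WT of SNc, without passing the adjusted test. The calcium- and sodium-activated alpha subunits had no common direction there, with 4 of 9 probesets above 0, 5 below and a median of -0.007. Kcnn2, another SK channel named after its values were seen, went the other way. It read 6.66 and 6.30 in SNc WT and 6.79 and 6.76 in SNc KO. Kcnn3, the SK channel that is known to regularise the firing of mDA neurons, read 8.94 and 8.58 in SNc WT, 8.35 and 8.30 in SNc KO, 8.63 and 8.58 in VTA WT, and 8.19 and 8.35 in VTA KO. Each KO group lay under the WT group of its region without overlap. The log2 differences were -0.44 in SNc (95% interval -0.79 to -0.08, unadjusted p = 0.0225, adjusted p = 0.470 by limma) and -0.33 in VTA (-0.69 to 0.02, adjusted p = 0.508), and that in SNc was -0.62 without SNc WT replicate 2 and -0.26 without SNc WT replicate 1. Kcnmb4, the BK beta subunit of neurons, read 7.34 and 7.38 in SNc WT, 6.93 and 6.91 in SNc KO, 7.34 and 7.40 in VTA WT, and 6.81 and 7.27 in VTA KO. It showed the same pattern, with -0.44 in SNc (unadjusted p = 0.0314, adjusted p = 0.514 by limma) and -0.33 in VTA (adjusted p = 0.548). All 4 BK beta probesets were below 0 in SNc, with a median of -0.248 beside 0.004 over all probesets, and 2 of 4 in VTA, with a median of -0.018 beside -0.01. Of these, Kcnmb1 was under a linear signal of 60 in both SNc groups, and the Kcnmb3 arrays of the SNc genotypes overlapped. Kcnma1, the BK alpha subunit, had group means of 8.58 and 8.32 in SNc (WT and KO) and 8.30 and 8.28 in VTA and did not pass the test, and its second probeset was read under the filter, at 3.34 to 4.04. Lrrc55, a BK gamma subunit, had 8.63 and 8.32 in SNc and 8.15 and 8.07 in VTA, with a log2 difference of 0.47 in SNc WT against VTA WT (unadjusted p = 0.0229, adjusted p = 0.202 by limma).

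Kcnt2, the sodium-activated channel Slick, was chosen after its values were seen because its difference was the same in both regions. It read 6.62 and 6.67 in SNc WT, 7.18 and 7.08 in SNc KO, 6.65 and 6.56 in VTA WT, and 6.93 and 7.27 in VTA KO. Every KO array was above every WT array. The log2 difference was 0.49 in SNc (95% interval 0.15 to 0.82) and 0.50 in VTA (0.16 to 0.84), with adjusted p of 0.405 and 0.311 by limma. Its regional differences were 0.04 in WT and 0.03 in KO.

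Kcnj10 and Kcnj16 had their highest signals in VTA WT. They encode Kir4.1 and Kir5.1, inward rectifier subunits that join in one channel and are known from astrocytes and other support cells. Kcnj10 read 5.71 and 5.43 in SNc WT, 5.72 and 5.95 in SNc KO, 7.00 and 6.93 in VTA WT, and 6.31 and 5.97 in VTA KO. The VTA WT arrays lay above all others, the VTA KO arrays came next, and the SNc means were under a linear signal of 60. SNc WT was 2.63-fold lower than VTA WT (95% interval 1.99 to 3.48), with a log2 difference of -1.40, a standard error of 0.17 and an adjusted p of 0.0319 by limma. VTA KO was 1.78-fold lower than VTA WT (1.34 to 2.35), a log2 difference of -0.83 (unadjusted p = 0.00212, adjusted p = 0.221 by limma). In SNc the knockout difference was 0.26 (-0.14 to 0.66), and the interaction was 1.09 (95% interval 0.52 to 1.66, unadjusted p = 0.0031, adjusted p = 0.344 by limma). The regional difference stayed between -1.54 and -1.26 with any array left out, but its adjusted p was over 0.05 without any single array of SNc WT, SNc KO or VTA WT and reached 0.213 without VTA WT replicate 1. Kcnj10 entered the comparison through its VTA groups, and with no signal filter its adjusted p was 0.0628 by limma.

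Kcnj16 read 5.93 and 5.93 in SNc WT, 6.19 and 6.16 in SNc KO, 7.19 and 7.24 in VTA WT, and 6.83 and 5.99 in VTA KO. SNc WT was 2.43-fold lower than VTA WT (95% interval 1.59 to 3.70, unadjusted p = 0.00192, adjusted p = 0.0956 by limma). The 2 VTA KO arrays were far apart, and the log2 difference of -0.81 between VTA KO and VTA WT (adjusted p = 0.357 by limma) was -1.22 without VTA KO replicate 1 (adjusted p = 0.0441) and -0.39 without VTA KO replicate 2. Its interaction was 1.05 (unadjusted p = 0.0245, adjusted p = 0.470 by limma).

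Markers of astrocytes with radial glia and of ependymal cells were also highest in VTA WT by their summed signals, and of these the ependymal sum alone had VTA KO next, as Kcnj10 did. The other glial lists were split. Oligodendrocyte lineage markers were highest in VTA WT, at 616 to 629, and those of microglia and macrophages in SNc WT, at 525 to 571. The summed linear signal of 11 astrocyte and radial glia genes ranged over 3600 to 3830 in SNc WT, 3760 to 3900 in SNc KO, 4920 to 5350 in VTA WT and 3120 to 4010 in VTA KO. That of 12 ciliated ependymal genes (69 probesets) ranged over 2950 to 3230, 3110 to 3140, 8350 to 10200 and 4510 to 7360. Gja1, the gap junction protein of astrocytes, read 6.33 and 6.41 in SNc WT, 8.95 and 8.28 in VTA WT, and 8.54 and 6.89 in VTA KO, and its replicate 2 of VTA KO was the lower array, as for Kcnj16. Aldoc, a glycolytic enzyme of astrocytes, ran the other way, with means of 7.20 in SNc WT and 6.95 in VTA WT. Gfap and Aldh1l1, which define mature astrocytes, were under a linear signal of 60 in every group. Of the 46 ependymal probesets compared, SNc WT was lower than VTA WT in 7 and higher in 0 at an adjusted p under 0.05 by limma. Of the 10 astrocyte probesets none was called, with 6 lower at an unadjusted p under 0.05. Over all probesets 0.439% were called and 18.8% had an unadjusted p under 0.05 by limma. Most of the 69 ependymal probesets are of Dnah3 and Spef2, so the ependymal count largely repeats these genes. The signal filter also favoured its direction, since 58 of the 69 failed to reach 60 in SNc WT but only 24 in VTA WT. Most ependymal probesets compared thus entered through a VTA group, as Kcnj10 did, and the split of 7 to 0 cannot show a direction by itself. Pericyte and smooth muscle markers, another known site of Kir channels, summed to 693 to 750 in SNc WT, 1850 to 2060 in SNc KO, 1890 to 2580 in VTA WT and 551 to 2450 in VTA KO. The part of these cells in the Kcnj10 and Kcnj16 results was not tested.

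**Figure D4:**
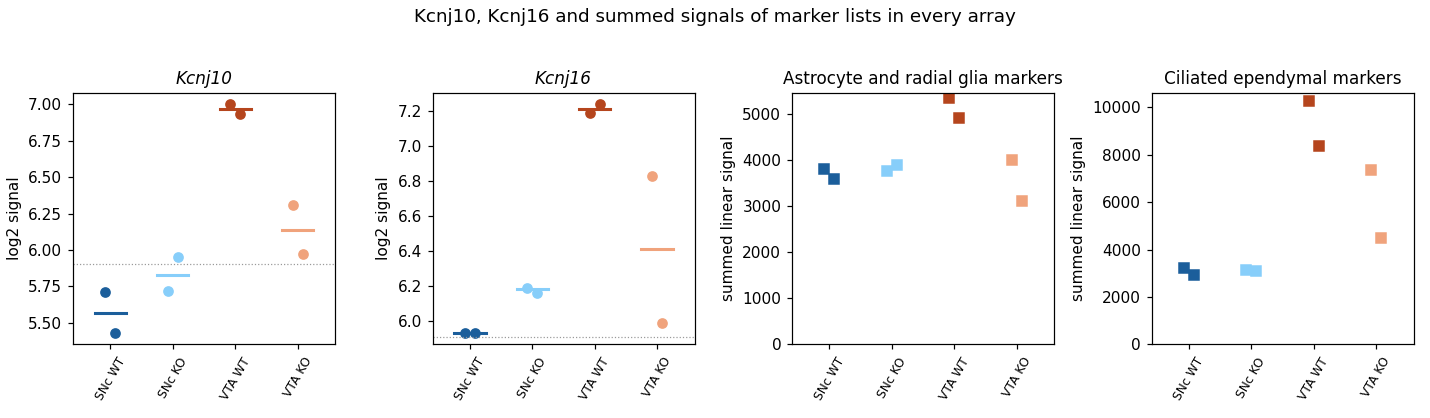
Log2 signal of Kcnj10 and Kcnj16 in every array (left, y axes with their own scales, bars at the means of 2 arrays, dotted line at a linear signal of 60), beside the summed linear signal of the astrocyte and of the ependymal markers (right, y axes from 0). In all 4 panels VTA WT is the highest group and the 2 arrays of VTA KO lie apart.

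Of the other inward rectifiers, Kcnj12, which encodes Kir2.2, also had its highest mean in VTA WT, and Kcnj13 did not. Kcnj12, named after its values were seen, read 5.98 and 6.05 in SNc WT, 6.46 and 6.10 in SNc KO, 6.61 and 6.20 in VTA WT, and 6.15 and 5.81 in VTA KO. The VTA WT arrays lay above those of SNc WT and VTA KO but overlapped those of SNc KO. The log2 difference was -0.39 between the WT regions (95% interval -0.88 to 0.10, adjusted p = 0.354 by limma) and -0.43 between the VTA genotypes (-0.92 to 0.06, adjusted p = 0.544 by limma), and neither passed. Kcnj14 and Kcnj15 had group means of 6.63 to 6.80 and of 5.83 to 6.00, with no difference past the test. Kcnj13, which encodes Kir7.1, known from choroid plexus and retinal pigment epithelium, read 7.54 and 7.17 in SNc WT, 7.30 and 7.08 in SNc KO, 6.74 and 7.06 in VTA WT, and 6.55 and 6.91 in VTA KO. All SNc arrays were above all VTA arrays, by a log2 difference of 0.46 in WT and 0.46 in KO (adjusted p = 0.286 and 0.310 by limma), which did not pass. Kcnj1, Kcnj2 and Kcnj4 stayed under the filter in every group. So did Kcna1, Kcna7, Kcna10, Kcnab3, Kcne1, Kcne3, Kcne4, Kcng4, Kcnh1, Kcnk5, Kcnk18, Kcnmb4os2, Kcnn4, Kcns1, Kcnu1 and the second probeset of Kcnma1, which makes 19 in all.

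Kcnrg, which encodes a soluble protein with the tetramerization domain of Kv channels that can hinder their assembly, had the most positive log2 difference of the Kcn probesets between SNc WT and VTA WT. The promoter window with the TAATCC motif, printed above, is of this gene. It read 6.83 and 7.43 in SNc WT, 7.70 and 7.11 in SNc KO, 6.36 and 6.44 in VTA WT, and 6.98 and 7.04 in VTA KO. VTA WT was the lowest group, under all 6 other arrays. The fold of SNc WT over VTA WT was 1.66 (95% interval 1.08 to 2.54, unadjusted p = 0.027, adjusted p = 0.213 by limma), and the log2 difference of 0.73 was 1.03 without SNc WT replicate 1 and 0.43 without SNc WT replicate 2. VTA KO was 0.61 above VTA WT (95% interval -0.01 to 1.22, adjusted p = 0.493 by limma).

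The knockout differences of the 2 regions rest on different arrays and can be set side by side. Over the 89 Kcn probesets, 38 were above 0 in both regions and 23 below 0 in both, which is 68.5%, beside 47.4% over all 35512 probesets. That larger set includes many probesets under the signal filter and 12102 with no gene symbol, so it is unlike the Kcn set. The correlation between the differences was 0.46 over the Kcn probesets and -0.01 over all probesets, as a description, since the probesets of an array share its RNA. Without Kcnk9, Kcnj10 and Kcnj16 the share was 69.8% and the correlation 0.37. Kcnk9, Kcna4, Kcnd2, Kcnt2, Kcnf1, Kcnrg and Kcnv1 were among those above 0 in both regions, and Kcnn3, Kcnmb4, Kcnd3, Kcnip3 and Kcnip4 among those below 0 in both. Kcnj10, Kcnj16, Kcng3, Kcnab1 and Kcnip1 were above 0 in SNc and below 0 in VTA. The interaction was called for none of the 70 probesets at an adjusted p under 0.05 by limma, nor for any probeset on the arrays (0.0%). At an unadjusted p under 0.05 there were 5 (7.14%, against 9.89% of all probesets), all with the more positive difference in SNc: Kcnj10, Kcnj16, Kcnk9, Kcng3 and Kcnc4.

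**Figure D5:**
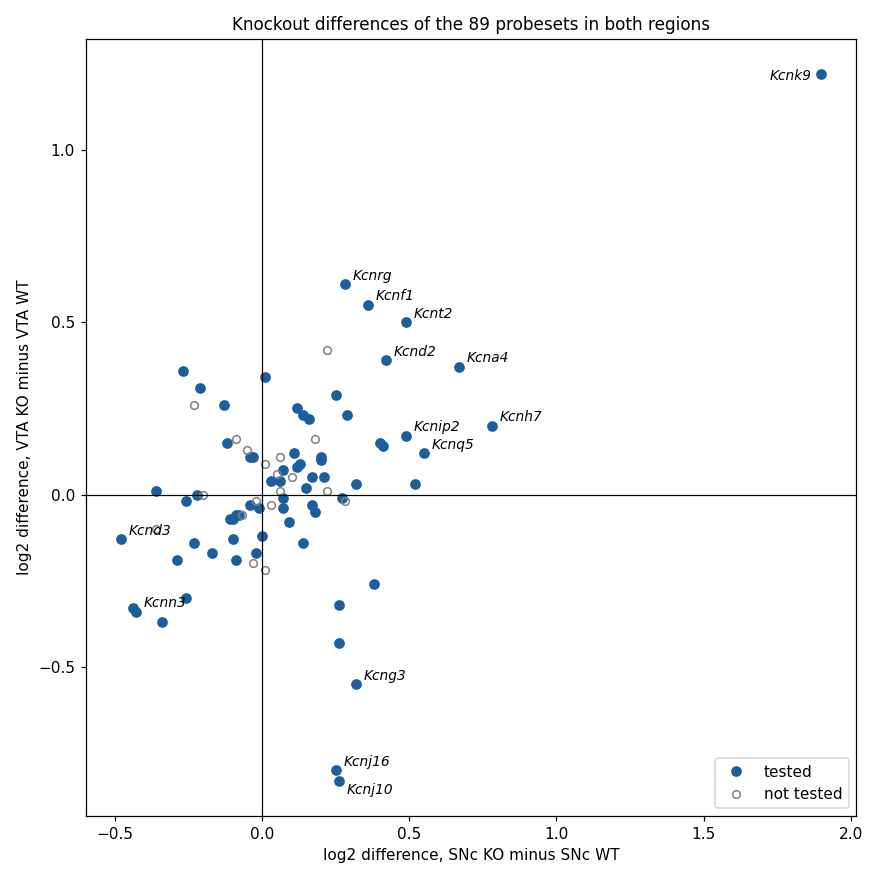
Log2 difference between KO and WT of each of the 89 probesets in SNc (x axis) and in VTA (y axis), with filled points for compared probesets and open points for those under the signal filter. Kcnk9 lies alone at 1.90 and 1.21, Kcnj10 and Kcnj16 lie at the bottom with 0.26 and 0.24 in SNc and -0.83 and -0.81 in VTA, and most other points lie near 0 on both axes.

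The regional differences likewise rest on different arrays in WT and in KO. Over the 89 Kcn probesets, 21 were higher in SNc and 44 lower in SNc in both genotypes (73.0%, beside 63.7% over all probesets), and the correlation was 0.42 beside 0.26. The same limit on the set of all probesets holds here. Kcnd3, Kcnip3, Kcna6, Kcnh2, Kcnj13 and Kcnrg were higher in SNc in both genotypes. Between the KO groups no Kcn probeset passed the study's thresholds. The lowest and highest log2 differences were -0.50 for Kcnmb1, a BK beta subunit, and 0.49 for Kcnab2, a Kv beta subunit. Kcnmb1 was under the signal filter in both KO groups, with means of 5.34 in SNc and 5.84 in VTA, and was compared only through VTA WT. Kcnk9, Kcng3 and Kcnab1, which were apart between the WT groups, differed between the KO groups by -0.14, 0.00 and -0.11, with 95% intervals that reached from -0.79 to 0.58 at the widest. Whether these regional differences changed with genotype is the same test as the interaction above.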

How the data were processed

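The deposited values were log2 expression values, 1 per probeset and array, which the authors made with RMA (RMA Express by the methods, whose version and genome build are not stated there). The LPE step of FlexArray that the methods add was not used here. The methods print the p threshold as at least 0.05, taken here as at most 0.05. Of 35512 probesets, 21789 carry 1 gene symbol, 1621 several and 12102 none; the gene IDs of all 89 Kcn probesets were found in a RefSeq gene table of GRCm38.p6 and 0 symbols changed.

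Probesets that reached a linear 60 as the mean of any group (22112) were compared with limma 3.58.1 (R 4.3.3), fitting a mean for each group over all 8 arrays (4 residual and 2.4 prior degrees of freedom). P-values were adjusted by Benjamini-Hochberg over all of them within a comparison, and calls were made at an adjusted p under 0.05. Intervals are 95% intervals of limma, not adjusted. The script was tested on simulated data. The precision is limited by the number of arrays.

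Named genes were those called, those past the study's thresholds, the probeset of highest mean in each class, and Kcnd3, Kcnip3, Kcnip1, Kcnn3, Kcnma1, Kcnk3, Kcnj10 and Kcnj16; some further genes of this rule are not reported here. The members, classes, partner list and marker lists were chosen with earlier results of these data known. Alternatives changed the signal filter, the normalization between arrays, the arrays fitted, the replicate block, the variance trend and the array weights, and left out each array.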

Additional observations from a re-analysis of the deposited data

How the results depend on the processing

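The calls rest on few arrays. The differences followed here were chosen for an unadjusted p under 0.05 by limma in these same arrays. The alternatives refit the same arrays, so few reversals could occur, and their count does not measure how sure the directions are. Most of these differences were not called in the fit used above, so keeping their side mostly means staying uncalled. For 28 differences of named genes with an unadjusted p under 0.05, 440 values were computed under the alternatives: 0 reversed, 416 kept their side of the threshold, 16 lost the call and 8 gained one. In SNc WT against VTA WT, the count of Kcn probesets called by limma was 1, and 4 with array weights (Kcnd3, Kcnj10, Kcnj16 and Kcnk9), 2 with the arrays of the 2 groups only (Kcnj10 and Kcnj16) and 0 with no signal filter (Kcnj10 at an adjusted p of 0.0628). With each array left out in turn it ranged from 0 to 3, being 3 without VTA KO replicate 1, 2 without VTA KO replicate 2 and 0 without any other array. In SNc KO against SNc WT the count was 1, and 0 with the arrays of the 2 groups only (Kcnk9 at an adjusted p of 0.0860); with arrays left out it ranged from 0 to 1. In VTA KO against VTA WT it was 0, and ranged from 0 to 1 with arrays left out (Kcnj16, without VTA KO replicate 1). Between the KO groups it was 0 and ranged likewise from 0 to 1 (Kcnj16, without VTA KO replicate 2). At the study's thresholds the 3 Kcn probesets in VTA KO against VTA WT became 5 after quantile normalization (with Kcnf1 and Kcnrg) and 3 to 5 with arrays left out, and the 0 in SNc KO against VTA KO became 0 to 3. The interaction had 0 calls throughout. Other counts stayed within 1.5 times. The cause of these changes was not tested.

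Arrays with the same replicate number showed little common deviation: the correlation of their deviations from the group means was 0.00577 to 0.0980 over the 6 pairs of groups. This gave no sign that the numbers pair the samples, but with 2 arrays per group it cannot exclude such pairing. With the replicate block the counts of called Kcn probesets were 0 in SNc WT against VTA WT (Kcnj10 at an adjusted p of 0.0588) and 0 in SNc KO against SNc WT (Kcnk9 at 0.0603), and 0 in the other comparisons.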
